A study of Mus musculus with 8 samples.

Results

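The genes described here charge transfer RNAs, make amino acids and carry amino acids across the plasma membrane. They are the 20 genes of the cytosolic aminoacyl-tRNA synthetases, 5 genes of serine and mitochondrial one-carbon synthesis, 3 genes of asparagine and proline synthesis and 6 amino acid transporter genes. They were chosen by symbol, and all 34 were found among the 41444 genes listed for RNA-seq of mouse macrophages. The cells were macrophages derived from the bone marrow of wild-type (WT) C57BL/6 mice with the growth factor M-CSF at 100 ng/mL. One group of 4 samples received 6 nM SLIT2, a secreted ligand of ROBO receptors, for 16 hours, and the other group of 4 samples received vehicle. The question was how SLIT2 alters transcription in these cells. Each value is the authors' regularized-log (rlog) value, a log2-scale expression level corrected for library size, so differences below are log2 differences and a difference of 1 is a doubling.

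A synthetase joins an amino acid to its matching tRNA, which the ribosome then uses. When amino acids run short, uncharged tRNA activates the kinase GCN2, which slows general translation through eIF2 and favours translation of the transcription factor ATF4. ATF4, paired with C/EBP proteins, is known to drive many synthetase, serine synthesis, asparagine synthetase and transporter genes through a composite DNA element. The growth regulator MYC and the nutrient-sensing kinase complex mTORC1 act on many of the same genes. In macrophages, amino acid uptake and serine synthesis are known to feed cytokine production, nucleotide synthesis and glutathione.

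The core of that composite element, TGATGNAA read on either strand, was searched for in RefSeq promoter windows of build GRCm38.p6, which run from 250 bases before to 50 bases after each annotated start. Of the 34 genes, 25 had a window, and 8 of these 25 (32%) held the motif, against 4.51% of all 27025 genes with a window. The stricter letters TGATGCAA were present in the windows of 6 of the 25 genes (24%), against 1.03% of all genes. The MYC-type E-box CACGTG, whose last letters TG can overlap the start of the first motif, was present in 5 of the 25 (20%), against 8.09% of all genes. These matches describe the letters of the windows and are not evidence of binding. The 8 genes were Aars, Asns, Gars, Iars, Pycr1, Slc1a4, Tars and Yars. For the genes listed below, each stretch is shown 5′ to 3′ on the gene's strand, with the 8 motif letters in capitals and 10 bases on each side. TTGCATCA and TTTCATCA are the motif read on the other strand.
Slc1a4 (chr11:20332700-20332727, minus strand): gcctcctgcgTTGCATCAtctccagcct
Iars (chr13:49682127-49682154, plus strand): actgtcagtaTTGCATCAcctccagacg
Yars (chr4:129189896-129189923, plus strand): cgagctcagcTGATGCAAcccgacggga
Tars (chr15:11399656-11399683, minus strand): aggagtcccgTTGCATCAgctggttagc
Gars (chr6:55037961-55037988, plus strand): ggctgcgctaTTTCATCAtgcaccgggc
Asns (chr6:7693215-7693242, minus strand): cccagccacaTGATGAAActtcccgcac
Pycr1 (chr11:120643834-120643861, minus strand): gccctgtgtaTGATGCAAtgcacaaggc

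The libraries differed by replicate number as well as by treatment, and this touches most values below. In both groups the first pair of replicates (1 and 2) stood away from the second (3 and 4), and the labels do not say what a number marks. In all 8 libraries the X-inactivation RNA Xist and the Y-linked gene Ddx3y followed these sets: Xist was 7.47 to 7.65 and Ddx3y 10.75 to 10.83 in replicates 1 and 2, and Xist was 12.69 to 12.79 and Ddx3y 5.90 to 6.45 in replicates 3 and 4. For the 33 genes of the group that could be tested, the replicate set took 40.7% of the sum of squares, treatment 39.5%, their interaction 5.46% and the spread within a set 14.3%. At 17 of the 33 the gap between the sets was wider than the SLIT2 difference. All 10 macrophage markers examined were expressed, with a summed level of 19.04 to 19.56 (log2) in SLIT2 libraries and 19.08 to 19.57 in vehicle libraries. Among macrophage genes, the M-CSF receptor gene Csf1r differed by -0.08 (adjusted p = 0.902) and Adgre1, for a common macrophage surface marker, by 0.11 (0.820). None of 8 T, B and NK cell markers reached the level needed for testing, and Ncr1 was listed at 0. Lower values in bulk samples cannot be told apart between fewer cells of a type and less RNA per cell. Whether each sample is its own culture or animal is not in the labels, so the spread behind each p-value is only that of these 8 samples and could be technical.

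SLIT2 moved few of these genes, and by small amounts. The neutral amino acid transporters Slc1a4 and Slc38a2 rose, as did Aars and Rars, the genes of alanyl- and arginyl-tRNA synthetase, while Psat1, the aminotransferase of serine synthesis, fell. These 5 of 33 genes (15.2%) passed limma at an adjusted p of 0.05, adjusted over all 11851 genes whose rlog averaged 4 or more, where 13.3% of genes passed. By direction, 4 genes were higher, against 6.76% of all genes tested, and 1 was lower, against 6.58%. The share past the test was therefore close to that of the whole table. The median difference was 0.11, against 0.002 for all genes tested, and 25 of the 33 differences were positive, against 6000 of 11851. Blocking on the replicate number brought 12 of the 33 past the threshold upwards and 3 downwards (45.5%), where 33% of all genes passed. With replicates 1 and 2 averaged to a sample, and 3 and 4 likewise, limma called 0 of the 33 (at an unadjusted p under 0.05, 12 were higher and 2 lower), where 5.81% of all genes passed. At that unadjusted threshold the whole table had 1717 genes higher and 1763 lower of 11851.

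**Figure D1:**
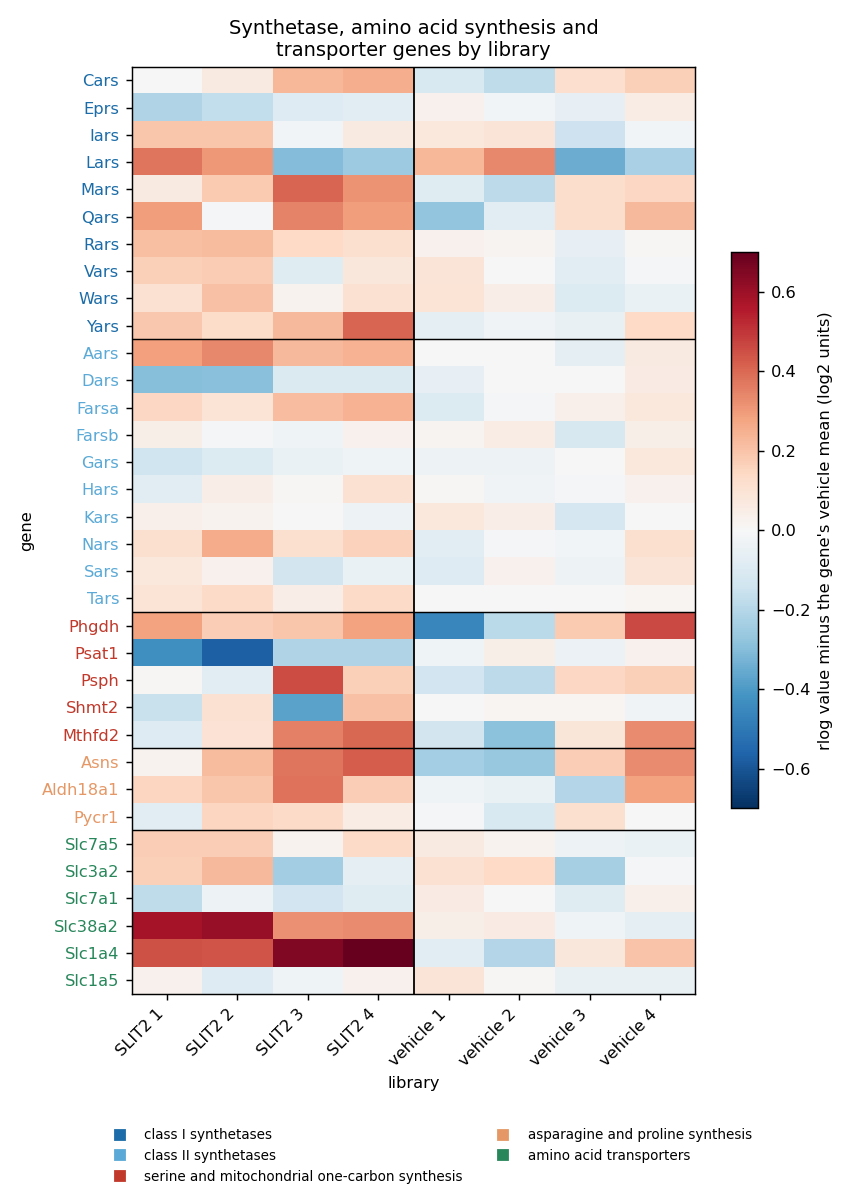
Heat map of the 34 genes (rows, coloured by role) in the 8 libraries (columns, SLIT2 left of vehicle). Colour gives the rlog value minus the gene's mean over the 4 vehicle libraries, in log2 units; the Slc1a4 and Slc38a2 rows are raised in all 4 SLIT2 libraries, Psat1 is lowered in all 4, and rows such as Lars and Asns change between replicates 1 and 2 and replicates 3 and 4.

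Of the 6 transporter genes, 2 rose and 4 did not pass, 33.3% past the test against the 13.3% of all genes. Slc38a2, which encodes the sodium-coupled neutral amino acid transporter SNAT2 (ENSMUSG00000022462, chromosome 15, 96687392 to 96699730 in GRCm38), had values of 13.19, 13.22, 12.93 and 12.94 in SLIT2 replicates 1 to 4. In vehicle replicates 1 to 4 it had 12.65, 12.67, 12.58 and 12.54. All 4 SLIT2 libraries lay above all 4 vehicle libraries, with a gap of 0.26 between the groups. It rose by 0.46 (SE 0.078, limma adjusted p = 0.00636), a 1.38-fold change on the rlog scale. Its adjusted p was 0.0545 with averaged duplicates.

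Slc1a4 encodes ASCT1, a carrier of serine, alanine and other small neutral amino acids (ENSMUSG00000020142, chromosome 11, 20302180 to 20332713). It had 6.35, 6.34, 6.55 and 6.73 in SLIT2 replicates 1 to 4, against 5.83, 5.70, 5.98 and 6.10 in vehicle replicates 1 to 4. Within each group replicates 3 and 4 were the higher ones, yet every SLIT2 library was above every vehicle library. It rose by 0.59 (SE 0.12, limma adjusted p = 0.0160), the widest difference of the 33 genes tested, and 1.51-fold on the rlog scale. Its adjusted p was 0.0513 with averaged duplicates. The motif match in its window begins 4 bases before the annotated start, and the whole window, with that match in capitals, lies at chr11:20332664-20332963 on the minus strand.
Slc1a4 window: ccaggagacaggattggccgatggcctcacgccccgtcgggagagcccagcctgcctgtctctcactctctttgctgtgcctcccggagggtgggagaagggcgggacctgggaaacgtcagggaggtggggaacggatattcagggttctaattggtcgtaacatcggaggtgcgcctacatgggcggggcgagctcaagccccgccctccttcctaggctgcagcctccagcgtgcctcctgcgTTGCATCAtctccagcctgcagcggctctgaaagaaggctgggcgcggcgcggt
No match was present in the Slc38a2 window, and sequence outside the windows, introns among it, was not searched.

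Slc3a2, the heavy chain that carries several amino acid transporters to the membrane, was the transporter furthest from the threshold. It had 12.47, 12.53, 12.06 and 12.24 in SLIT2 libraries, against 12.41, 12.44, 12.07 and 12.29 in vehicle libraries, in order of replicate. The groups overlapped, and the sets differed more than the treatments did (difference 0.02, SE 0.12, limma adjusted p = 0.937). Its light-chain partner Slc7a5, known as LAT1, differed by 0.12 (95% interval -0.03 to 0.28). The cationic amino acid transporter gene Slc7a1 differed by -0.11 (-0.23 to 0.01). For Slc1a5, which encodes the glutamine carrier ASCT2, the difference was -0.01 (-0.14 to 0.11).

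**Figure D2:**
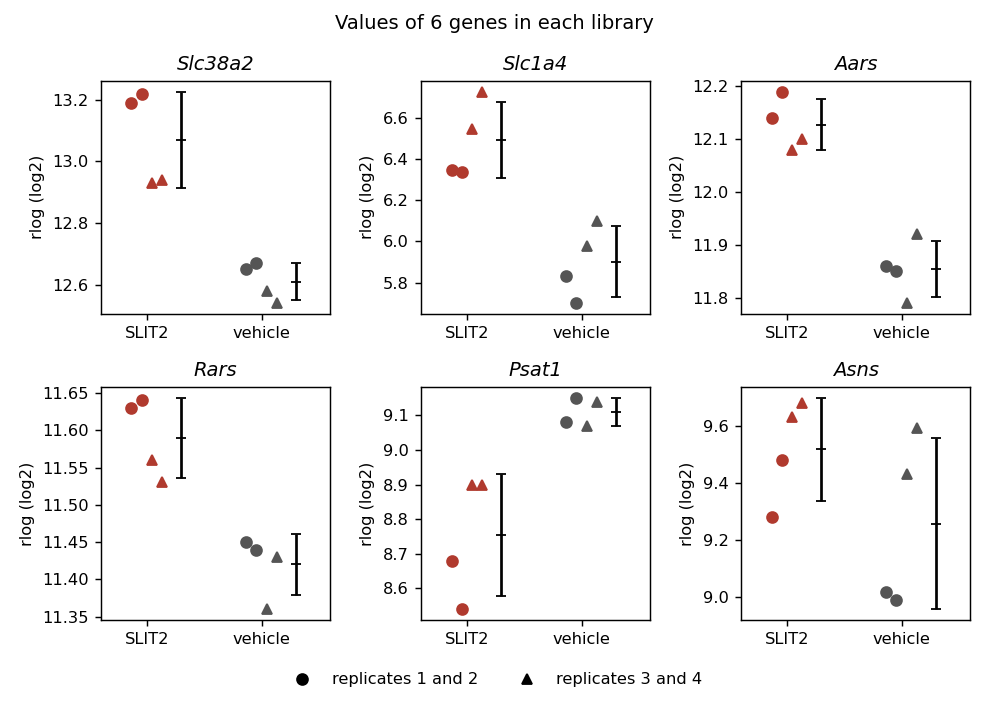
rlog values (log2) of 6 genes in each library, SLIT2 left of vehicle, with circles for replicates 1 and 2, triangles for replicates 3 and 4, and a bar for the mean and SD of 4 samples. The groups do not overlap for Slc38a2, Slc1a4, Aars, Rars and Psat1 and do overlap for Asns; vertical axes do not start at 0.

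Among the 20 synthetase genes, 2 rose, none fell and 18 did not pass limma, 10% past the test against the 13.3% of all genes; at an unadjusted p under 0.05, 7 were higher and 2 lower, where the whole table had 1578 higher and 1538 lower of 11851. With the replicate block 9 were higher and 2 lower, where 16.6% of all genes were higher and 16.4% lower. The synthetases fall into class I and class II, which have unrelated catalytic folds. In each class 1 of 10 passed. The median difference was 0.12 in class I and 0.02 in class II. Aars of class II (ENSMUSG00000031960, chromosome 8, 111033144 to 111057664) had 12.14, 12.19, 12.08 and 12.10 in SLIT2 replicates 1 to 4, against 11.86, 11.85, 11.79 and 11.92 in vehicle replicates 1 to 4. The groups were 0.16 apart. It rose by 0.27 (SE 0.044, limma adjusted p = 0.00498), and its adjusted p was 0.0656 with averaged duplicates. Of its annotated exonic bases, 1326 (14.3%) lie in Exosc6 on the same strand, so reads of this stretch cannot be assigned to either gene here.

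Rars of class I (ENSMUSG00000018848, chromosome 11, 35808381 to 35834506) had 11.63, 11.64, 11.56 and 11.53 in SLIT2 replicates 1 to 4. In vehicle replicates 1 to 4 it had 11.45, 11.44, 11.36 and 11.43. The groups did not overlap, but the gap was only 0.08. It rose by 0.17 (SE 0.043, limma adjusted p = 0.0354). The call was lost without any of SLIT2 replicates 1 to 3 or vehicle replicates 1 to 4 (adjusted p between 0.0646 and 0.0975), and the adjusted p was 0.106 with averaged duplicates.

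Several other synthetase genes did not pass with treatment alone and passed once the replicate number was a block. Mars, for methionine, had 10.22, 10.34, 10.56 and 10.47 in SLIT2 libraries and 10.07, 9.97, 10.28 and 10.30 in vehicle libraries, in order of replicate. It was higher in all 4 pairs, while the groups overlapped (difference 0.24, adjusted p = 0.169, and 0.00973 with the block). A stretch of 68 exonic bases of Mars lies antisense to Ddit3. Yars, for tyrosine, differed by 0.24 (adjusted p = 0.0755, and 0.00422 with the block), and Farsa, the alpha subunit for phenylalanine, by 0.18 (0.0775, and 0.0109 with the block). Farsb, which encodes the beta subunit of the same enzyme, differed by 0.01 (95% interval -0.10 to 0.12). With the block, Nars, for asparagine, Cars, for cysteine, Iars, for isoleucine, and Tars, for threonine, were also higher, by 0.10 to 0.16 (block adjusted p between 0.0233 and 0.0425).

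Dars, for aspartate, and Eprs, whose protein charges both glutamate and proline tRNAs, were the synthetase genes that passed lower with the block. Dars had 11.19, 11.20, 11.39 and 11.39 in SLIT2 libraries, against 11.43, 11.49, 11.49 and 11.55 in vehicle libraries, in order of replicate. The groups lay 0.04 apart (difference -0.20, adjusted p = 0.0744, and 0.0103 with the block). Eprs had 12.02, 12.06, 12.14 and 12.15 in SLIT2 libraries and 12.26, 12.21, 12.17 and 12.28 in vehicle libraries. The gap between its groups was 0.02 (difference -0.14, adjusted p = 0.0943, and 0.0352 with the block).

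At the other end, Lars, for leucine, showed the widest separation of sets among the synthetases. Its values were 10.78, 10.71, 10.10 and 10.15 in SLIT2 libraries, against 10.64, 10.74, 10.06 and 10.18 in vehicle libraries, in order of replicate. Replicates 3 and 4 were lower than 1 and 2 by 0.57 in vehicle and by 0.62 in SLIT2 libraries, and the SLIT2 difference was 0.03 (SE 0.21, limma adjusted p = 0.952). Kars, for lysine, was the class II gene furthest from the threshold, with 11.03, 11.02, 10.99 and 10.96 in SLIT2 libraries and 11.07, 11.04, 10.88 and 10.99 in vehicle libraries. These values overlapped throughout (95% interval of the difference -0.11 to 0.12, adjusted p = 0.968). The remaining synthetase genes did not pass with or without the block. Qars and Wars, for glutamine and tryptophan, differed by 0.23 and 0.11. Vars, Hars, Sars and Gars, for valine, histidine, serine and glycine, differed by between -0.08 and 0.08. Hars shares 195 exonic bases with the antisense gene Hars2, and Farsb shares 248 with Sgpp2. Other antisense overlaps were 211 exonic bases for Cars with Gm15580 and 30 for Yars with C77080.

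**Figure D3:**
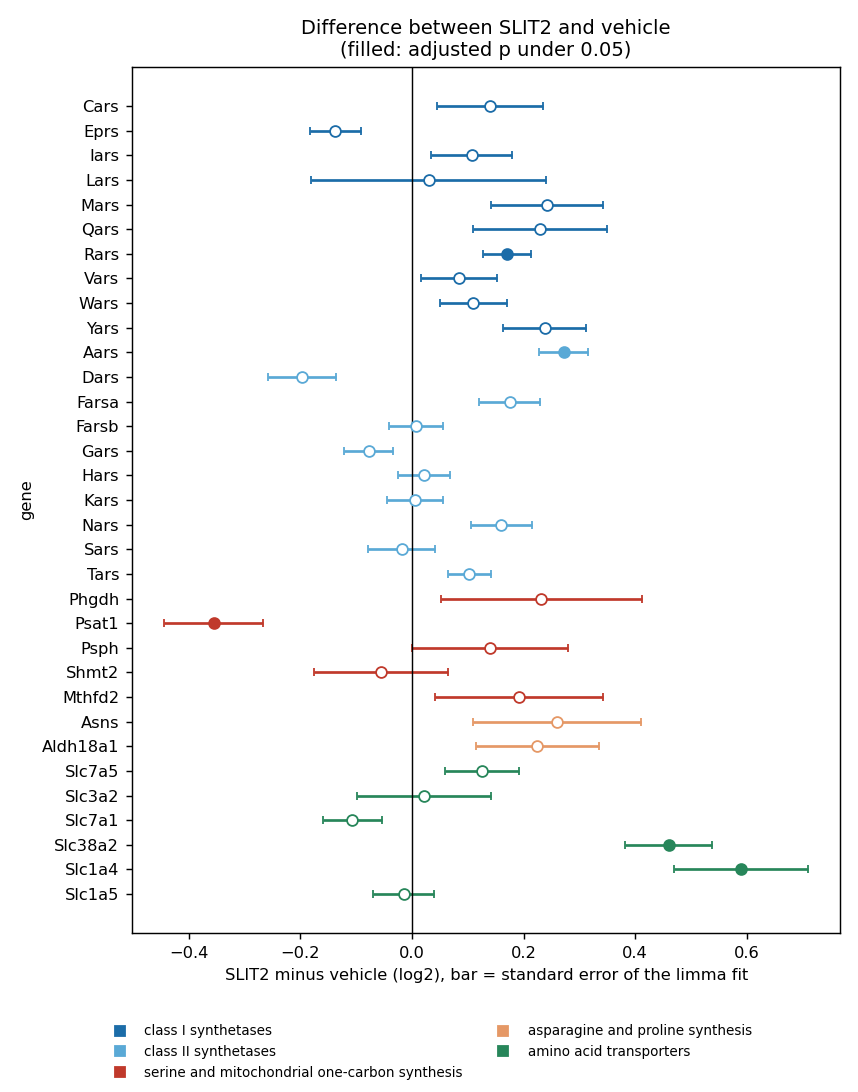
Difference between SLIT2 and vehicle (log2, horizontal axis) for the 33 genes tested, coloured by role, with bars for the standard error of the limma fit and filled points for an adjusted p under 0.05. Most points lie between -0.2 and 0.3; Slc1a4 at 0.59, Slc38a2 at 0.46 and Psat1 at -0.35 lie outside.

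In serine and mitochondrial one-carbon synthesis, 1 of 5 genes fell and 4 did not pass, 20% past the test against the 13.3% of all genes. Psat1 encodes phosphoserine aminotransferase, the middle enzyme of the pathway (ENSMUSG00000024640, chromosome 19, 15904678 to 15947337). It had 8.68, 8.54, 8.90 and 8.90 in SLIT2 replicates 1 to 4, against 9.08, 9.15, 9.07 and 9.14 in vehicle replicates 1 to 4. All SLIT2 libraries were lower, and the SLIT2 libraries of replicates 1 and 2 were the lowest. Psat1 fell by 0.35 (SE 0.089, limma adjusted p = 0.0346), by 0.50 among replicates 1 and 2 but by 0.20 among replicates 3 and 4. The call was lost without SLIT2 replicate 1 or 2 or any vehicle replicate (adjusted p between 0.0627 and 0.0883), and the adjusted p was 0.140 with averaged duplicates.

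The enzymes on either side of Psat1 in the pathway did not pass the test. Phgdh, which commits a glycolytic intermediate to serine synthesis, had 7.79, 7.68, 7.70 and 7.79 in SLIT2 libraries. In vehicle libraries it had 7.05, 7.32, 7.69 and 7.97, the widest vehicle spread of the group (SD 0.40, n = 4). Replicates 1 and 2 gave a SLIT2 difference of 0.55, whereas replicates 3 and 4 gave -0.08. Within replicates 1 and 2 alone Phgdh passed (adjusted p = 0.0177), and limma's test for unequal differences had an adjusted p of 0.0883. Psph, the phosphatase that completes serine, differed by 0.14 (95% interval -0.17 to 0.45), and 452 of its exonic bases are antisense to Cct6a. Mthfd2, a mitochondrial folate enzyme, differed by 0.19 (-0.16 to 0.55). Shmt2, which moves a carbon from serine to folate in mitochondria, was the furthest from the threshold. It had 9.23, 9.49, 9.01 and 9.59 in SLIT2 libraries and 9.38, 9.40, 9.40 and 9.36 in vehicle libraries, so the SLIT2 libraries lay on both sides of vehicle (adjusted p = 0.839).

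Of the asparagine and proline synthesis genes, none of the 2 tested passed limma (0 at an unadjusted p under 0.05), and 1 was higher with the block. Asns, asparagine synthetase, had 9.28, 9.48, 9.63 and 9.68 in SLIT2 libraries, against 9.02, 8.99, 9.43 and 9.59 in vehicle libraries, in order of replicate. Each SLIT2 library was above its same-numbered vehicle library, but vehicle replicates 3 and 4 exceeded SLIT2 replicate 1. The difference was 0.26 (SE 0.15, limma adjusted p = 0.343, and 0.0311 with the block). Aldh18a1, which starts proline synthesis from glutamate, differed by 0.23 (adjusted p = 0.238). Pycr1, a mitochondrial enzyme that completes proline, had 2.80 to 3.03 in SLIT2 libraries and 2.77 to 2.99 in vehicle libraries, below the level for testing.

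The SLIT2 difference had the same sign in both replicate sets at 26 of the 33 genes tested, and in all 4 pairs of same-numbered libraries at 21, of which 16 were higher and 5 lower. Tested by limma for unequal SLIT2 differences in the sets, 0 of 33 genes passed (5 at an unadjusted p under 0.05), where 4.4% of all genes did (2282 of 11851 at the unadjusted threshold). This test rests on the spread within duplicates. Values of SLIT2 and vehicle libraries did not overlap at 9 of the 33 genes (27.3%), against 20.5% of all genes tested.

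**Figure D4:**
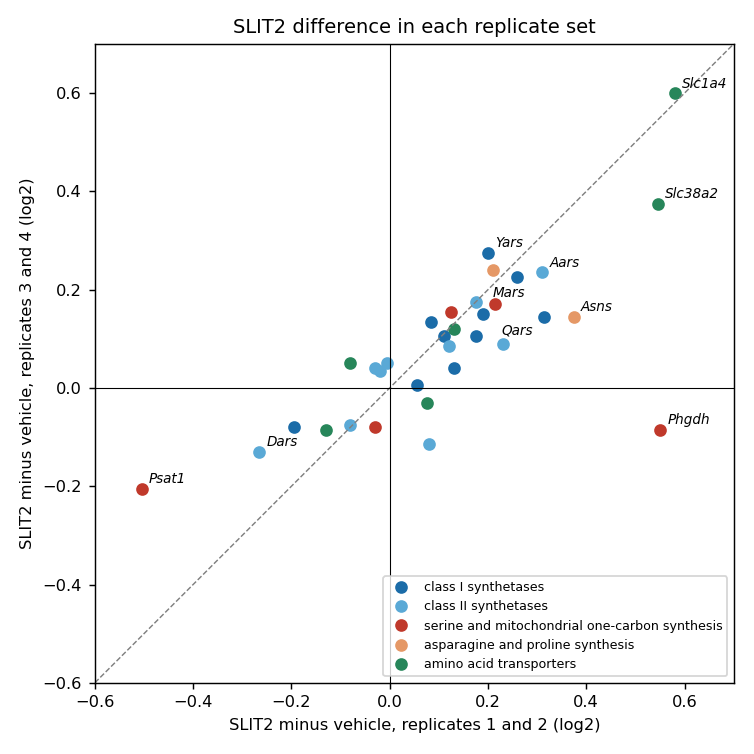
SLIT2 minus vehicle (log2) in replicates 1 and 2 (horizontal axis) and in replicates 3 and 4 (vertical axis) for the 33 genes tested, coloured by role, with the line of equality dashed. Slc1a4 lies on the line at about 0.6 in both sets, whereas Phgdh sits at 0.55 on the horizontal and -0.08 on the vertical axis.

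The genes whose promoter window held TGATGNAA included 2 of the 4 that rose. Of the 8, 7 were tested, 2 were higher and none lower (6 higher with the block), with a median difference of 0.24. Of the 17 with a window and no match, 1 was higher and 1 lower (3 higher and 3 lower with the block), with a median of 0.02. The 9 genes with no window in the table, Rars among them, had a median of 0.11. For comparison, limma with treatment alone called 6.76% of all genes tested as raised and 6.58% as lowered. Once the replicate number was a block, these shares were 16.6% and 16.4%. The median over all genes tested was 0.002. Among the matched genes Gars, for glycine, differed by -0.08 (95% interval -0.18 to 0.02), so not every window with the motif belonged to a raised gene. These are descriptions of a few genes, and no test of the motif was made.

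Known regulators of these genes moved in both directions. In the list of the ATF4 branch, 5 of 20 tested genes rose and 2 fell, 35% against the 13.3% of all genes. The largest were Nfil3, a transcriptional repressor, with a rise of 1.59 (limma adjusted p = 0.00182), Nupr1, a stress-induced chromatin regulator, with a rise of 1.41 (7.24e-05), and Atf3, a repressor of the ATF family, which fell by 0.89 (3.63e-04). Atf4 itself averaged 12.59 in SLIT2 libraries and 12.40 in vehicle libraries (adjusted p = 0.613; averaging the duplicates gave 0.121, and the block 0.0118), and its activity is controlled mostly at translation, which these data do not measure. The ATF4 targets Ddit3, Trib3 and Sesn2 had differences of 0.08, 0.14 and 0.29 and did not pass (adjusted p = 0.705, 0.606 and 0.199; Sesn2 0.00397 with the block and 0.0873 with averaged duplicates). Chac1 averaged 4.04 in SLIT2 libraries and 3.88 in vehicle libraries and was too low to be tested. Eif2ak4, which encodes GCN2, had means of 9.44 in SLIT2 libraries and 9.85 in vehicle libraries and fell by 0.42 (adjusted p = 0.0106). The list of eIF2 kinases and phosphatase subunits also holds Eif2s1, Eif2b1 to Eif2b5, Gcn1, Impact and Dele1. In this list 1 of 15 rose and 1 fell (4 higher and 2 lower with the block). This share, 13.3%, was that of all genes, where 16.6% were higher and 16.4% lower with the block. The gene that rose was Ppp1r15b, for a subunit of the eIF2 phosphatase, by 0.15 (adjusted p = 0.0381), and it passed in none of the 8 fits that left out a library (adjusted p up to 0.0990).

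In the chaperone list of the endoplasmic reticulum, of 20 genes, 12 rose and none fell, 60% against the 13.3% of all genes, with a median of 0.35. Xbp1, the transcription factor of this response, rose by 0.51 (adjusted p = 1.08e-04). Manf, a secreted chaperone-associated factor, rose by 0.49 and the disulfide isomerase gene Pdia4 by 0.47. Pdia4 lost its call without any SLIT2 replicate or without vehicle replicate 3 or 4 (adjusted p up to 0.0948). The median of the chaperone list was 0.19 among replicates 1 and 2, against 0.47 among replicates 3 and 4. Of the 20 genes, 10 passed the test of the difference between the sets, where 4.4% of all genes did. With averaged duplicates 2 of the 20 passed.

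Growth and nutrient-sensing regulators included genes that fell. Myc averaged 8.33 in SLIT2 libraries and 9.19 in vehicle libraries and fell by 0.86 (SE 0.075, adjusted p = 2.6e-04). Among the 7 tested genes of the MYC family and partners 3 rose and 3 fell, 85.7% against the 13.3% of all genes. Mxd1 and Mxd4, MYC antagonists, changed by 0.53 and -0.31. Mxd1 lost its call without SLIT2 replicate 1 or 2 or any vehicle replicate (adjusted p up to 0.1). Of 37 genes of amino acid sensing by mTORC1, 4 rose and 3 fell (8 and 10 with the block), 18.9% past the main test against the 13.3% of all genes. Rptor, the scaffold of the complex, fell by 0.50 (adjusted p = 0.0166), Sesn1, a sestrin that restrains it, fell by 0.50 (2.37e-04), and Castor2, of the arginine sensor family and listed under its older symbol Gatsl2, rose by 0.41 (0.0126). Of 20 proliferation genes 2 fell, 10% against the 13.3% of all genes (1 higher and 11 lower with the block), and 18 of 20 differences were negative. Of all genes tested, 16.6% were higher and 16.4% lower with the block, and 6000 of 11851 differences were positive. Ccnd1, for cyclin D1, fell by 1.24 and Pcna, the DNA replication clamp, by 0.45; Pcna kept its call only without SLIT2 replicate 4 (adjusted p up to 0.107).

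Few neighbouring amino acid and translation genes passed the test, where 13.3% of all genes did. The shares were 0% of the mitochondrial synthetase list, 12.5% of scaffold and editing partners, 4.76% of folate enzymes and 8.33% of elongation and initiation factors. With the block, 16.6% of all genes were higher and 16.4% lower. The mitochondrial synthetase list of 20 genes includes Qrsl1, Gatb and Gatc, which are not synthetases. None of the 20 passed limma (0 lower and 1 higher at an unadjusted p under 0.05, and 1 higher with the block). Tars2, for mitochondrial threonine, had the smallest p (difference 0.19, limma adjusted p = 0.118). Of 8 scaffold and editing partners 1 rose, Prorsd1, related to a bacterial editing domain, by 0.37. Of 21 further folate enzymes 1 fell (3 higher and 5 lower with the block), Atic, which completes purine synthesis, by 0.23. Of these folate genes 6 of 21 differences were positive, with a median of -0.12, against 6000 of 11851 and 0.002 for all genes tested. Of 24 elongation and initiation factors 1 rose and 1 fell (4 and 3 with the block). Eif1a, an initiation factor, rose by 0.26, and Eef2k, the kinase that inhibits elongation, fell by 0.17; Eif1a kept its call in 2 and Eef2k in none of the 8 fits that left out a library (adjusted p up to 0.0857 and 0.123).

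Among other amino acid enzymes and transporters, a few genes changed by more than any of the 33 genes tested. The median absolute difference was 0.096 for the enzymes and 0.24 for the transporters, against 0.14 for the 33 genes. Of 28 further enzymes of amino acid metabolism 3 rose and 0 fell (with the block, 5 and 2), 10.7% past the main test against the 13.3% of all genes. Arg2, mitochondrial arginase, averaged 8.34 in SLIT2 libraries and 6.05 in vehicle libraries, a rise of 2.29 (SE 0.46, adjusted p = 0.0131). Kmo, of tryptophan breakdown, rose by 1.91 (adjusted p = 0.0213), and Oat, ornithine aminotransferase, by 0.13 (adjusted p = 0.0412). Kmo lost its call without SLIT2 replicate 1 or 2 or vehicle replicate 3 or 4 (adjusted p up to 0.0633), and Oat kept its call only without vehicle replicate 4 (up to 0.108). The limma adjusted p of Kmo was 4.09e-05 with the block and 0.0262 with averaged duplicates, and that of Oat 0.0128 and 0.146. Of 25 further transporters 4 rose and 4 fell (6 and 9 with the block), 32% past the main test. With the block, 16.6% of all genes were higher and 16.4% lower. Slc7a7, a light chain that partners Slc3a2, rose by 0.69 (adjusted p = 0.0307), while the aromatic amino acid carrier Slc16a10 fell by 0.62 (0.00181) and the creatine carrier Slc6a8 by 0.56 (0.0378). Slc7a7 kept its call only without SLIT2 replicate 3 or 4 (adjusted p up to 0.0807), and Slc6a8 only without SLIT2 replicate 4 or vehicle replicate 2 (up to 0.0969). Slc7a7 had a limma adjusted p of 0.00394 with the block and 0.0861 with averaged duplicates, and Slc6a8 had 5.65e-05 and 0.0332. Slc7a11, the cystine carrier and a further partner of Slc3a2, averaged 8.93 in SLIT2 libraries and 9.61 in vehicle libraries. Its limma adjusted p was 0.0863, against 0.0220 with the block and 0.0332 with averaged duplicates.

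**Figure D5:**
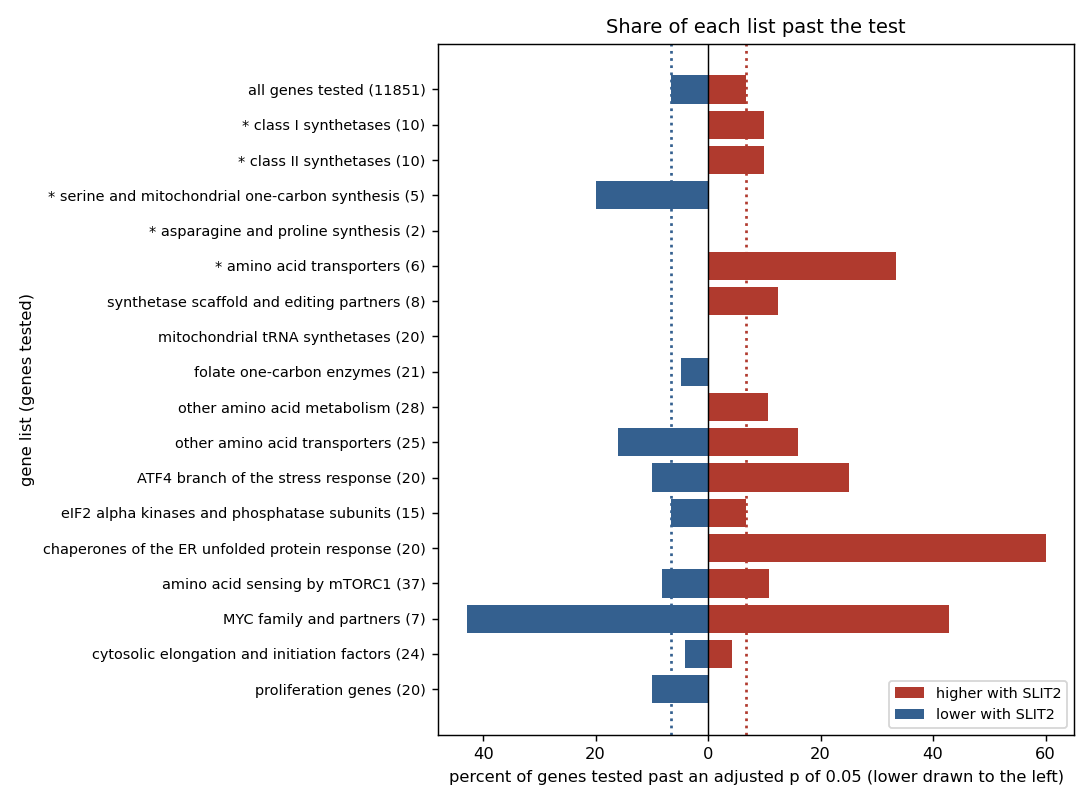
Percent of the genes tested in each list that were higher (red, to the right) or lower (blue, to the left) at an adjusted p under 0.05, with the number tested in brackets, asterisks for the groups that make up the 34 genes, and dotted lines at the shares of all genes tested. The chaperone list reaches 60% higher, while both synthetase classes reach 10%.

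Summed levels of markers of other cell types differed between the groups for some lists. The summed level of 8 osteoclast markers, of which 5 were tested and Calcr was listed at 0, was 12.59 to 13.23 (log2) in SLIT2 libraries and 13.36 to 13.93 in vehicle libraries. That of 8 erythroid and megakaryocyte markers, of which 2 were tested and Hbb-bs and Gp9 were listed at 0, was 9.96 to 12.31 in SLIT2 libraries and 9.06 to 10.53 in vehicle libraries. For 7 dendritic cell markers, of which 2 were tested, it was 7.80 to 8.89 in SLIT2 libraries and 6.46 to 7.24 in vehicle libraries. Kmo is on this list too, at 7.54 to 8.79 in SLIT2 libraries, close to the sums, and 5.49 to 6.90 in vehicle libraries. Of the 2 tested dendritic markers only 1 difference was positive, that of Kmo. For 11 stromal and endothelial markers, of which 6 were tested, the summed level was 10.54 to 10.86 in SLIT2 libraries and 10.36 to 10.63 in vehicle libraries. The 7 monocyte markers, of which 3 were tested, summed to 8.21 to 9.08 in SLIT2 libraries and 8.48 to 8.61 in vehicle libraries. Of the 3 tested, Cd300e and Nr4a1, named after their values were seen, fell by 0.74 and 1.02 (limma adjusted p = 0.00859 and 0.0114; Nr4a1 0.131 with averaged duplicates), and Ccr2 differed by 0.87 (adjusted p = 0.124, and 0.00166 with the block). The 8 neutrophil markers, of which 2 were tested and Ly6g was listed at 0, summed to 6.45 to 6.91 in SLIT2 libraries and 6.46 to 7.25 in vehicle libraries. The 6 mast cell and basophil markers, of which 1 was tested and 4 were listed at 0 (Cpa3, Fcer1a, Tpsb2 and Cma1), summed to 4.81 to 5.19 in SLIT2 libraries and 5.22 to 5.69 in vehicle libraries. The T, B and NK cell markers summed to 4.12 to 4.18 in SLIT2 libraries and 4.12 to 4.23 in vehicle libraries. Their part in the differences above was not tested.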

How the data were processed

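RNA-seq was made by the authors from 4 SLIT2 and 4 vehicle samples, which per the labels' protocols used 300 ng of RNA, a stranded mRNA library kit and 101 bp paired-end reads. Per the submitters' processing notes, STAR, Salmon, DESeq2, Picard 2.23.8, SAMtools 1.7 and FastQC 0.11.9 were used with mm10 and GRCm38. The sources used here give neither their roles nor the strand setting. The authors deposited rlog values, which are log2 values, with 2 decimals. The transform shrinks low genes towards their mean, so small differences are understated at low levels. The files hold no read counts, so the depth of each library is unknown and counting intervals are not available.

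The members and all gene lists were chosen with earlier results of these data known. Genes with a mean of at least 4 were fitted with limma 3.58.1 in R 4.3.3 (treatment only, mean-variance trend, two-sided, Benjamini-Hochberg adjustment over 11851 genes, threshold 0.05), and the steps were tested on simulated data. Lists are given by counts and medians, with no list test, and each is named by its main content. Deviations from the group means correlated between samples of the same number (0.637, 0.671, 0.753 and 0.587 for numbers 1 to 4). The number was used as a block in an alternative fit only. The gap between the sets can give such correlations by itself. By median absolute difference, SLIT2 replicates 1 to 4 lay 0.15, 0.15, 0.12 and 0.13 from the same-numbered vehicle library. They lay 0.14, 0.15, 0.14 and 0.12 from the other vehicle library of their set. A pairing by number beyond the set was therefore not shown, and the labels do not give one. Alternatives were a replicate block, a set block, averaged duplicates, each set alone, other filters, scalings, priors and weights, and leaving out each library. Coordinates and overlaps came from GENCODE M21 on GRCm38, and promoter windows from RefSeq, matched by symbol; the Aars sequence is not reported here. Of the genes outside the 34, the text names up to 3 called genes per list by size of difference, or the gene with the smallest p, plus Atf4, Ddit3, Trib3, Chac1, Sesn2, Eif2ak4, Myc, Slc7a11, Csf1r and Adgre1. Xist, Ddx3y, monocyte markers and genes that overlap a member were named after their values were seen. Figures were drawn with matplotlib 3.10.9.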

Additional observations from a re-analysis of the deposited data

Results flagged for a closer look

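In 68 groups of 4 values (34 genes in SLIT2 and in vehicle libraries), a gap test for a stray sample marked 2, where chance marks about 1 in 20 groups. Qars, for glutamine, was 10.54 in SLIT2 replicate 2, below 10.85, 10.90 and 10.85 in SLIT2 replicates 1, 3 and 4. Tars was 10.72 in vehicle replicate 4 and 10.70 in the other vehicle libraries, a step of the last decimals given.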

How the results depend on the processing

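The alternatives changed counts more than directions. Slc1a4, Slc38a2 and Aars kept their direction in all 20 alternatives and lost their calls only with averaged duplicates (adjusted p = 0.0513, 0.0545 and 0.0656). Rars lost its call in 10 of 20 and Psat1 in 9 of 20, none with a change of sign. The replicate block, for which the pairing is described with the processing, gave 12 members higher and 3 lower and ended no member's call; with it 3912 genes passed in all. With the block the numbers past the test were 6 class I and 5 class II synthetases, 1 gene of asparagine and proline synthesis, 1 mitochondrial synthetase, 8 folate enzymes, 7 other metabolic enzymes, 15 other transporters, 11 ATF4 branch genes, 6 eIF2 kinase and phosphatase genes, 18 mTORC1 sensing genes, 7 elongation and initiation factors and 12 proliferation genes. It changed no other count by over 1.5 times. With a block for the replicate set, in the same order, 15 members were higher and 4 lower among 4652 genes, with 8, 6, 1, 2, 11, 10, 16, 13, 7, 19, 12 and 15, and 2 serine genes. Within replicates 1 and 2, 13 were higher and 3 lower among 3962, with 6, 5, 1, 1, 8, 8, 14, 13, 7, 15, 10 and 13, and 2 serine genes. Within replicates 3 and 4, 2880 genes passed, with 2 class I, 3 class II and 0 serine genes, 1 mitochondrial synthetase, 3 folate and 5 metabolic enzymes, 13 transporters, 6 eIF2, 15 mTORC1, 6 elongation and 5 proliferation genes. Averaged duplicates left 688 genes, 0 members in either direction, 0 scaffold, folate and elongation genes, 4 other transporters, 2 chaperones, 2 mTORC1 genes and 1 MYC family gene. With no filter on low values 0 members were lower and 0 class I, serine and elongation genes passed, with 2 folate, 1 eIF2, 3 MYC family and 1 proliferation gene. Folate enzymes numbered 2 with a mean of at least 6, quantile normalization or median centring. Quantile normalization and no trend each left 1 eIF2, 1 elongation and 1 proliferation gene, no trend also 0 class I genes, and array weights 1 elongation factor. The motif CACGTG was held by 5 members. The causes were not tested.

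Leaving out each library in turn gave 1021 to 1254 genes, 3 to 4 members higher and 0 to 1 lower, 0 to 1 class I, 1 class II and 0 to 1 serine genes, 2 transporters, 1 to 2 folate, 1 to 3 other metabolic enzymes, 4 to 7 other transporters, 7 to 8 ATF4 branch, 1 eIF2, 8 to 12 chaperone, 5 to 6 mTORC1, 3 to 4 MYC family, 0 to 1 elongation and 1 to 2 proliferation genes. Signs turned only for genes that did not pass with treatment alone, of which Phgdh passed within replicates 1 and 2 (0.55, adjusted p = 0.0177). Within replicates 1 and 2 the differences were -0.02 for Farsb, -0.005 for Hars, -0.03 for Kars and 0.08 for Sars. Within replicates 3 and 4 they were -0.085 for Phgdh, -0.03 for Slc3a2 and 0.05 for Slc1a5. Quantile normalization gave -0.023 for Farsb, -0.007 for Hars, -0.022 for Kars and -0.001 for Slc3a2, and median centring -0.003 for Kars. With each library left out in turn, the differences ran from -0.029 to 0.024 for Farsb, -0.006 to 0.054 for Hars, -0.033 to 0.03 for Kars, -0.048 to 0.019 for Sars, -0.055 to 0.111 for Slc3a2, -0.032 to 0.015 for Slc1a5, -0.085 to 0.142 for Lars and -0.142 to 0.052 for Shmt2. The files give no depth, so a limit set by depth cannot be stated.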
